A study of Mus musculus with 21 samples.

Results

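The 9 genes described here code for proteins that bundle, coat or anchor actin filaments. They are the actinins Actn1 and Actn4, the tropomyosins Tpm1, Tpm3 and Tpm4, and filamin A (Flna), vinculin (Vcl), talin 1 (Tln1) and zyxin (Zyx). They were picked by symbol from the 30733 genes of a raw count table, and all 9 have a row there. The choice was made with earlier results of the same data in view: Actn1 was known to be lower in knockout GMP and higher in knockout CFU-E. Its values in those contrasts are therefore given as a description, with no test, and what the whole set did there supports nothing by itself.

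RNA was sequenced from 21 libraries of sorted mouse bone marrow cells with a Stag2 knockout (KO) or the wild-type gene (WT). Stag2 is a subunit of cohesin, the ring that holds loops of chromatin. LSK, the fraction with stem cells and the earliest progenitors, gave 3 KO and 4 WT libraries. GMP, from which granulocytes and monocytes form, gave 4 KO and 3 WT libraries, as did CFU-E, committed to red cells. The labels give the genotype as Stag2KO or Stag2WT and no allele, Cre driver, age or treatment, and they number the replicates without saying that each came from its own animal, so the p-values measure the spread between libraries, part of which may be technical. Per the labels' protocols, magnetic beads removed lineage-positive cells ahead of sorting. The LSK kit reads whole transcripts (SMARTer) and the kit of both other populations reads 3′ ends, so LSK levels were not set against theirs.

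Actin filaments give a cell its shape and pull on its contacts. Actinins are paired rods that tie neighbouring filaments together, filamin A holds crossing filaments in a mesh, and tropomyosins lie along a filament and decide which myosins and other binders reach it. Talin links integrins, the receptors for the matrix, to actin, vinculin reinforces that link under load, and zyxin is brought to stressed filaments, where it takes part in repair. In blood the same set is known from platelets and megakaryocytes, in which actinin 1 (ACTN1 in human) mutations cause low platelet counts, and red cells carry short filaments coated with tropomyosin in the skeleton under their membrane.

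Depth, as total counts per library, was 22813333 to 32196233 in LSK and 3654667 to 5550165 in CFU-E. GMP KO libraries held 1250683 to 3471881 counts and GMP WT libraries 3732769 to 4401993, so depth went with genotype in GMP. Stag2 itself fell in LSK KO (log2 fold change -1.20 ± 0.128 SE, adjusted p = 0.027) and in CFU-E KO (-1.13 ± 0.205, adjusted p = 0.0143). In GMP it stood at 80.9 to 150.2 CPM (counts scaled to a common library size) in KO and 98.3 to 200.5 CPM in WT, and the difference of -0.47 ± 0.271 on the log2 scale was not called (adjusted p = 0.360). The libraries labelled GMP KO and GMP WT overlapped in Stag2, so its counts do not show the knockout there, and a 3′ tag outside a deleted stretch need not fall. Markers matched the sort: the 15 erythroid markers summed to between 9544 and 10832 CPM in CFU-E libraries and to between 198 and 277 CPM in GMP libraries. The LSK WT libraries differed among themselves in more than 1 way. WT 2 and WT 4 had the lowest totals, 22813333 and 23528077. Stromal markers summed to 97.1 and 98.7 CPM in them, against 21.8 CPM in WT 1 and 67.0 CPM in WT 3. In the LSK KO libraries the stromal markers summed to between 16.6 and 24.8 CPM. By other markers WT 1 stood apart: its neutrophil markers summed to 10717 CPM, against 18774 to 20413 CPM in WT 2 to WT 4. Its monocyte markers summed to 452 CPM, against 1226 to 1423 CPM. All CPM are scaled by TMM factors within the population unless stated, and a gene is called at an adjusted p under 0.05 in edgeR's quasi-likelihood test with Benjamini-Hochberg adjustment over all genes tested.

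Actn1, Tpm4 and Zyx, the 3 members whose KO and WT libraries did not overlap in CFU-E (11.8% of genes did not), are shown with the 250 bases upstream of their RefSeq start, beside Vcl, whose window holds the only CArG box, the site of serum response factor. The windows are from build GRCm38.p6, at chr12:80260364-80260613 (minus strand), chr8:72135038-72135287 (plus strand), chr6:42349578-42349827 (plus strand) and chr14:20929148-20929397 (plus strand), each written 5′ to 3′ in the direction of transcription and ending at the base before the start. Capitals mark a match to any motif searched:
Actn1: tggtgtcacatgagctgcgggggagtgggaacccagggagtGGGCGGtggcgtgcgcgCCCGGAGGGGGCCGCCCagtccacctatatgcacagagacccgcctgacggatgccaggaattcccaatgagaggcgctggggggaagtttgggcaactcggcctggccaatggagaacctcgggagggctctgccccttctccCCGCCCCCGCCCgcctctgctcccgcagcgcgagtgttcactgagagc
Tpm4: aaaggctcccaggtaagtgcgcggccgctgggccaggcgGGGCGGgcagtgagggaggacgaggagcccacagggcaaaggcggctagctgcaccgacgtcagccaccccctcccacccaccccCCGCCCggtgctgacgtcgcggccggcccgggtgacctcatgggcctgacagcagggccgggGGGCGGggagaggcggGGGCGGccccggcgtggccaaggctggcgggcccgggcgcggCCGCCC
Zyx: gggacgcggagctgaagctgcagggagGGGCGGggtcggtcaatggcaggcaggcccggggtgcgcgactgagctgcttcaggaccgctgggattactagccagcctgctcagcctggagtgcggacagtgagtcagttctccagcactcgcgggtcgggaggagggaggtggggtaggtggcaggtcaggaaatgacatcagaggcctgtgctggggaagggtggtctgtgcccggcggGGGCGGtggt
Vcl: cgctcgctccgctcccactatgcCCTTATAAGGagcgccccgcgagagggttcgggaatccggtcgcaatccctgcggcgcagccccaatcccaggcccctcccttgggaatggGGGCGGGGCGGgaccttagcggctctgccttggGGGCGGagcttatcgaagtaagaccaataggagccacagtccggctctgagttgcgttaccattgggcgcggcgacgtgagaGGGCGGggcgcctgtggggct

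All 9 genes had a window, and Tpm3 had 2 of them. The motifs were searched on both strands: the CArG box by its name, AGATAA for GATA factors, TGTGGT for Runx factors, CCGGAA for Ets factors, GGGCGG for Sp and Klf factors and a loose form of the core bound by CTCF (CC, AG and GGC at fixed spacing), a factor known to hold cohesin at loop ends. The CArG box of Vcl lies 227 to 218 bases before the start, and 1.47% of the 32851 RefSeq windows of that length hold one. GGGCGG was found in 8 of the 10 windows, 1 from each of 8 genes. There were 4 matches in Actn1, 5 in Tpm4 and 2 in Zyx. The motif was found in 32.7% of all windows. That share is not matched for base content. G and C made up 68.4% of the Actn1 window, 78.8% of Tpm4 and 67.6% of Zyx, against a median of 52.4% over all windows. Tln1, the gene without a match, had 55.6%. Actn1 and Tpm1 each held 1 match to the loose CTCF core, found in 7.17% of windows, and the Actn1 match overlaps a GGGCGG match by 1 base. AGATAA was found in 1 Tpm3 window (9.99% of windows), and TGTGGT and CCGGAA in none of the 10 windows (4614 and 3952 of the 32851 windows hold them). A match describes letters only, and no match says nothing about a factor.

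Actn1, a nonmuscle actinin, was the member with the widest difference between KO and WT in both GMP and CFU-E, and the sign differed. In GMP it had 105, 90.3, 104 and 103 CPM in the 4 KO libraries, against 237, 278 and 245 CPM in the 3 WT libraries. Every GMP KO library lay below every GMP WT library, with means of 100.6 ± 6.93 CPM in KO (SD, n = 4) and 253 ± 21.4 CPM in WT (n = 3) and a log2 fold change of -1.33 ± 0.200, or -1.34 when counts were drawn down to about 1250683 in every GMP library. In CFU-E it had 17.1, 17.6, 12.8 and 8.51 CPM in the 4 KO libraries, against 3.53, 5.25 and 2.71 CPM in the 3 WT libraries. Every CFU-E KO library lay above every CFU-E WT library, with means of 14.0 ± 4.24 CPM in KO (n = 4) and 3.83 ± 1.30 CPM in WT (n = 3), a 4.21-fold difference that rests on 32 to 94 raw counts in KO and 10 to 27 in WT. Within flow cell A alone (CFU-E KO 1 against WT 1 and WT 2) the log2 fold change was 1.92, and within flow cell B alone (KO 2, KO 3 and KO 4 against WT 3) it was 2.26, against 2.07 ± 0.359 over both. The difference between the KO effects of CFU-E and GMP was 3.48 ± 0.351 on the log2 scale.

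**Figure D1:**
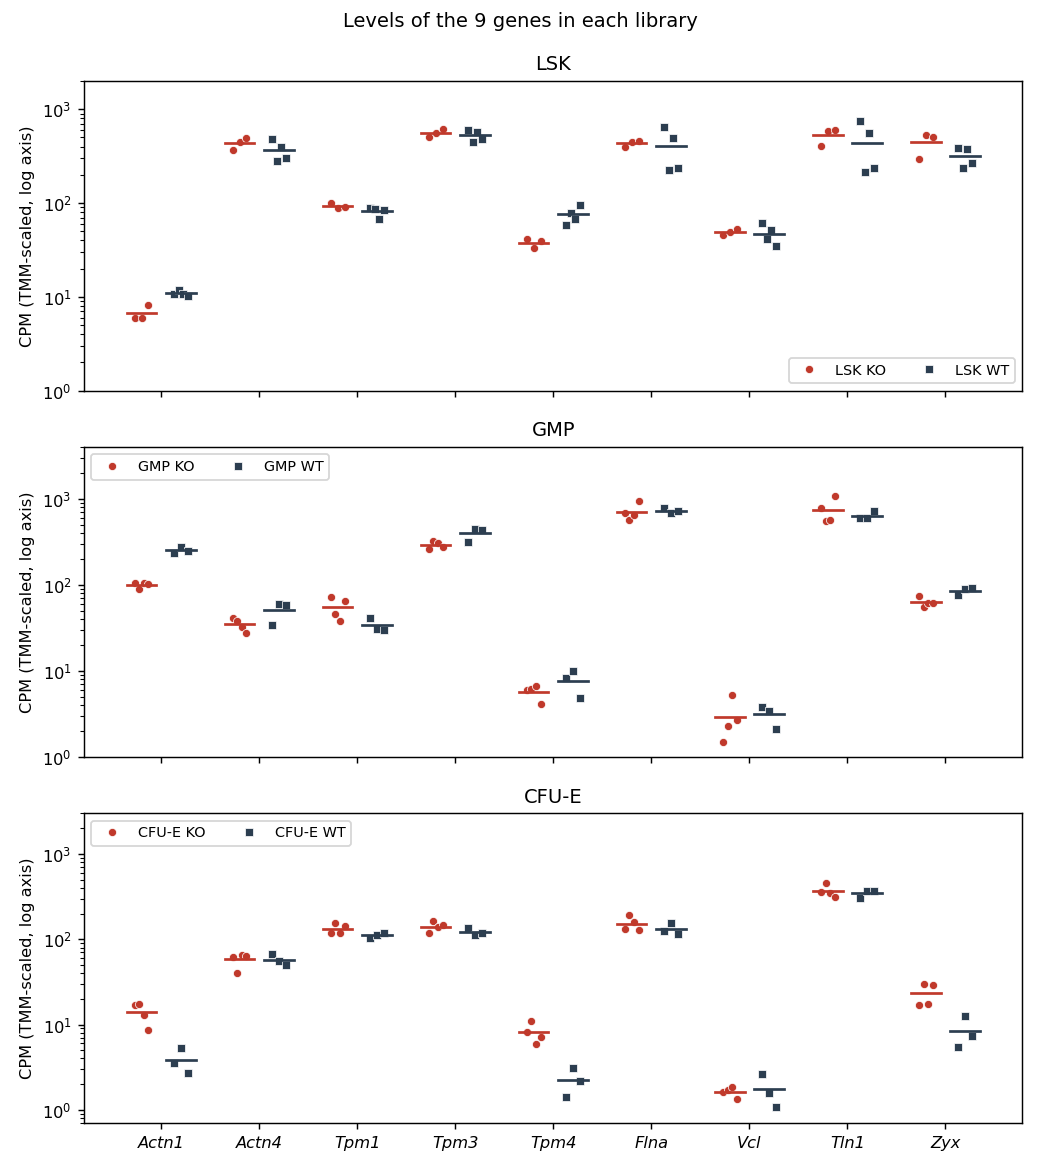
Level of each of the 9 genes in every library, in CPM on a log axis, by population (circles KO, squares WT, bars group means). Actn1 lies at 90.3 to 105 CPM in GMP KO and 237 to 278 CPM in GMP WT, and at 8.51 to 17.6 CPM in CFU-E KO and 2.71 to 5.25 CPM in CFU-E WT.

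The plot of levels by library shows that the Actn1 groups were apart in all 3 populations. In LSK, where the choice of genes used no value, Actn1 had 5.88, 5.90 and 8.26 CPM in KO libraries, against 10.7, 11.8, 10.8 and 10.3 CPM in WT libraries. Every LSK KO library lay below every LSK WT library, yet the difference of -0.71 ± 0.195 on the log2 scale was not called (adjusted p = 0.317). LSK libraries carried 155 to 237 Actn1 counts in KO and 252 to 331 in WT. Because the populations are sorted in bulk, a gene read less can mean fewer cells of a type or less RNA per cell, and these cannot be told apart here.

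The other actinin, Actn4, which shares the cross-linking fold and is also found in the nucleus, was called in none of the 3 populations. Its log2 fold change was 0.11 ± 0.205 in CFU-E (adjusted p = 0.920), -0.57 ± 0.255 in GMP (adjusted p = 0.258) and 0.26 ± 0.212 in LSK (adjusted p = 0.878). Levels in CFU-E were 40.4 to 66.2 CPM in KO and 50.0 to 67.4 CPM in WT, and the groups overlapped in every population. The balance of the pair can be read as the share of Actn1 in the summed raw counts of Actn1 and Actn4, which is not corrected for transcript length. That share of Actn1 was 74.4 ± 4.03% in GMP KO (SD, n = 4) and 83.4 ± 3.69% in GMP WT (n = 3). In CFU-E it was 19.9 ± 7.98% in KO (n = 4) and 6.27 ± 2.11% in WT (n = 3), and in LSK it was 1.498 ± 0.175% in KO (n = 3) and 3.04 ± 0.834% in WT (n = 4).

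**Figure D2:**
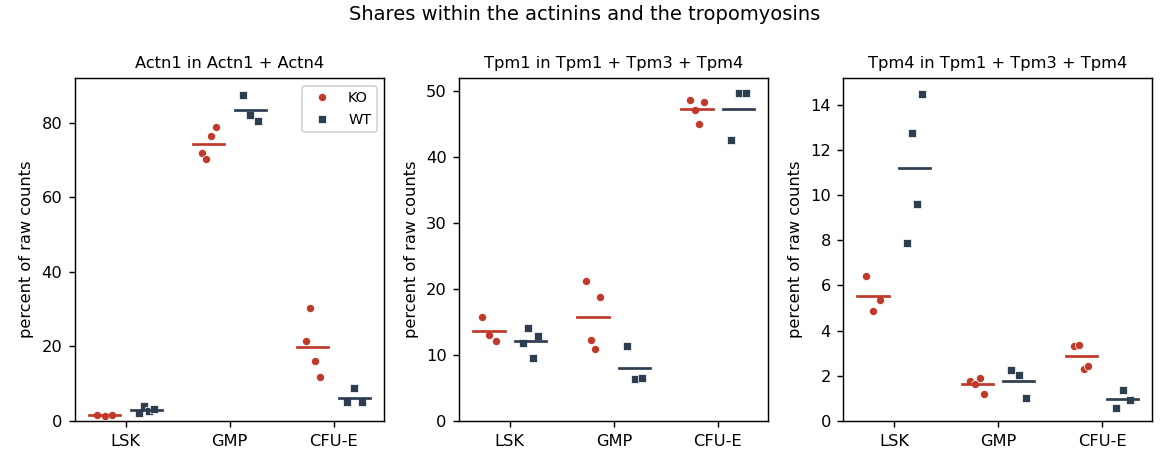
Percent of raw counts taken by Actn1 within the actinin pair, and by Tpm1 and Tpm4 within the 3 tropomyosins, in each library (circles KO, squares WT, bars the group means). KO libraries lie above WT libraries for the Actn1 and Tpm4 shares in CFU-E, with mean Tpm4 shares of 2.86% in KO and 0.956% in WT, and below them in LSK, with means of 5.53% in KO and 11.2% in WT.

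Among the tropomyosins Tpm4, a short form of nonmuscle cells that is abundant in platelets, stood apart from Tpm1 and Tpm3. In CFU-E Tpm4 had 8.15, 11.0, 5.98 and 7.18 CPM in KO libraries, against 1.41, 3.11 and 2.16 CPM in WT libraries. All CFU-E KO libraries lay above all CFU-E WT libraries, on 27 to 59 counts in KO and 6 to 16 in WT, and the difference, 1.85 ± 0.431 on the log2 scale, was not called (adjusted p = 0.0654). It passed with DESeq2 (adjusted p = 0.031), with no flow cell term (adjusted p = 0.0213) and with no filter on low counts (adjusted p = 0.00164), and over all alternatives its log2 fold change lay between 1.63 and 2.15.

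In LSK the Tpm4 groups were apart the other way. Its level was 41.1, 32.8 and 39.7 CPM in LSK KO libraries, against 58.5, 78.8, 68.1 and 96.4 CPM in LSK WT libraries. The difference of -0.99 ± 0.183 on the log2 scale was not called (adjusted p = 0.151), although DESeq2 (adjusted p = 0.000471) and edgeR without LSK WT 1 (adjusted p = 0.0326) called it. WT 2 and WT 4, the libraries with the highest Tpm4, also differed from WT 1 and WT 3 in other members, and without them the log2 fold change was -0.73 (adjusted p = 0.301). In GMP the Tpm4 level was 4.06 to 6.69 CPM among KO libraries and 4.77 to 10.1 CPM among WT libraries, with overlapping groups (log2 fold change -0.42 ± 0.371, adjusted p = 0.555). These GMP levels rest on 8 to 23 counts in KO and 18 to 35 in WT.

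Tpm1, the tropomyosin best known from muscle, and Tpm3, the main short form of nonmuscle cells, were not called in any population. In GMP, Tpm1 had 72.1, 45.8, 38.1 and 64.9 CPM in KO libraries, against 41.4, 31.0 and 30.2 CPM in WT libraries, so that GMP WT 1 lay inside the KO range. Its log2 fold change was 0.67 ± 0.262 (adjusted p = 0.207), and 0.31 without GMP KO 1 and KO 4, the highest libraries (adjusted p = 0.713). The share of Tpm1 among the 3 tropomyosins was 15.8 ± 5.001% in GMP KO and 8.02 ± 2.83% in GMP WT, while in CFU-E it was 47.2 ± 1.63% in KO and 47.3 ± 4.16% in WT. Tpm3 had a log2 fold change of 0.14 ± 0.162 in CFU-E (adjusted p = 0.851), of -0.46 ± 0.212 in GMP (adjusted p = 0.271) and of 0.08 ± 0.147 in LSK (adjusted p = 0.922). Reads of Tpm3 can also match Tpm3-rs7, a near copy with its own row, so the level of Tpm3 is uncertain to the extent that the counting split or dropped them.

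Besides Actn1 and Tpm4, Zyx, a LIM-domain protein of focal adhesions and stressed filaments, was the member whose CFU-E groups did not overlap. It had 17.1, 29.5, 17.3 and 28.7 CPM in CFU-E KO libraries, against 5.42, 12.5 and 7.30 CPM in CFU-E WT libraries. The log2 fold change of 1.33 ± 0.359 was not called (adjusted p = 0.118), and it was 0.89 in flow cell A alone, 1.78 in flow cell B alone and 0.91 without CFU-E WT 3. DESeq2 (adjusted p = 0.0243), the fit with no flow cell term (adjusted p = 0.0268), the fit with no filter (adjusted p = 0.000711) and the fit without CFU-E WT 2 (adjusted p = 0.0157) called it.

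In GMP the Zyx groups were apart in the other direction. Its level was 73.6, 55.7, 61.1 and 61.9 CPM in GMP KO libraries, against 75.9, 88.8 and 92.7 CPM in GMP WT libraries. KO 1, the highest KO library, was just below WT 1, the lowest WT library, and the log2 fold change of -0.45 ± 0.209 was not called (adjusted p = 0.271). In LSK the groups overlapped, at 297 to 537 CPM in KO and 235 to 383 CPM in WT (log2 fold change 0.50 ± 0.248, adjusted p = 0.712).

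Flna, Tln1 and Vcl, the mesh former and the integrin link with its reinforcement, were called in none of the populations in which they were tested. For Flna the log2 fold change was 0.19 ± 0.195 in CFU-E (adjusted p = 0.831), -0.02 ± 0.225 in GMP (adjusted p = 0.967) and 0.10 ± 0.357 in LSK (adjusted p = 0.956). Tln1 stood at 0.04 ± 0.161 in CFU-E (adjusted p = 0.969), 0.22 ± 0.252 in GMP (adjusted p = 0.655) and 0.26 ± 0.422 in LSK (adjusted p = 0.915), on the same scale. A p above the threshold does not show that their levels were equal. Vcl had 4 to 11 counts per CFU-E library and 2 to 18 per GMP library, and it did not pass the filter on low counts in CFU-E. Its log2 fold change was -0.01 ± 0.501 in GMP (adjusted p = 0.994) and 0.06 ± 0.188 in LSK (adjusted p = 0.952), where it had 34.8 to 60.5 CPM in all 7 libraries.

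The wide SE of Flna and Tln1 in LSK came with a split among the WT libraries. Flna was at 392.5, 442 and 459 CPM in the LSK KO libraries, against 647, 227, 498 and 236 CPM in LSK WT 1 to WT 4. Tln1 followed the same split, at 403, 585 and 594 CPM in the KO libraries, against 753, 216, 557 and 239 CPM in the WT libraries. WT 2 and WT 4 were the lowest WT libraries for Actn4, Flna, Tln1, Tpm3, Vcl and Zyx and the highest for Tpm4. Without these 2 libraries the log2 fold change was -0.39 for Flna, -0.30 for Tln1, -0.17 for Vcl, -0.0030 for Actn4 and -0.06 for Tpm3, each with the sign opposite to that over all libraries, and 0 of the 9 genes were called by edgeR.

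Counted over the set in LSK, 0 of the 9 genes were called by edgeR, against a background of 0.0793% of the genes tested. At an unadjusted p under 0.05 there were 2, Actn1 and Tpm4, and DESeq2 called the same 2. KO and WT libraries did not overlap for 2 of the 9 genes in LSK, against 7.89% of all genes tested, and the median log2 fold change was 0.10 for the set and 0.00 for all genes. In GMP, 1 of 9 was called, Actn1, against 1.45% of genes, and 2 did not overlap, against 15.8%. In CFU-E, 1 of the 8 genes that passed the filter was called, Actn1 again, against 1.06% of genes, and 3 did not overlap, against 11.8%: Actn1, Tpm4 and Zyx, the genes whose upstream windows are printed. Since Actn1 in GMP and CFU-E led to the choice of the set, nothing is read from those 2 calls. The same holds for the overlap counts and the set medians that include Actn1 in GMP and CFU-E. Without Actn1, 1 of 8 genes did not overlap in GMP and 2 of 7 in CFU-E, with 0 called in either. Median log2 fold changes of the set were -0.42 in GMP and 0.19 in CFU-E, with 0.02 and 0.00 for all genes.

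**Figure D3:**
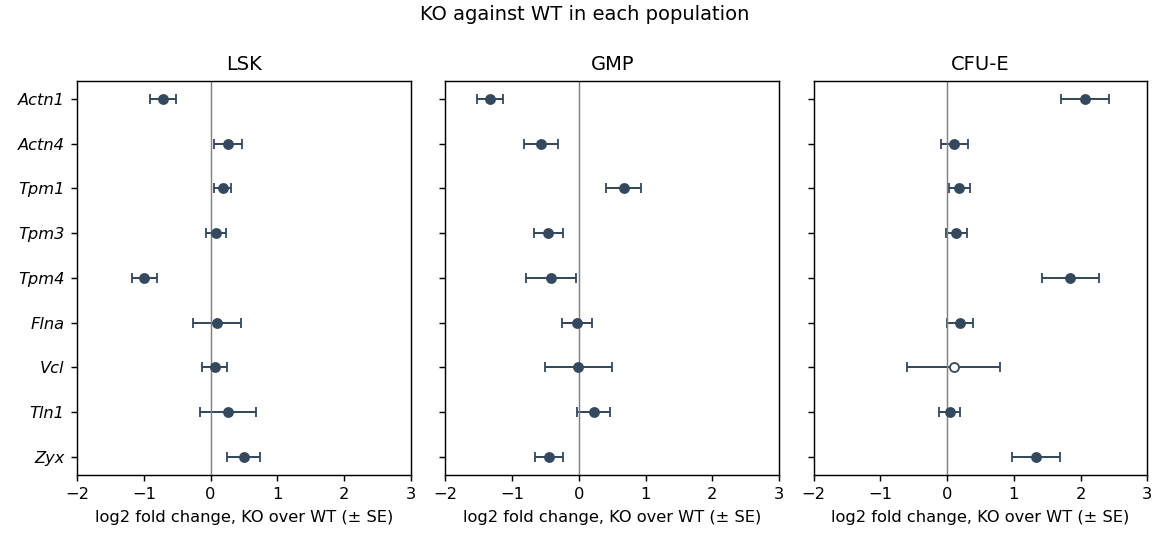
Log2 fold change of KO over WT with its SE for the 9 genes in LSK, GMP and CFU-E, where the open circle is Vcl in CFU-E from the fit with no filter on low counts (0.10 ± 0.696). Actn1, Tpm4 and Zyx lie to the right in CFU-E, at 2.07, 1.85 and 1.33, while Actn1 lies to the left in LSK and GMP, at -0.71 and -1.33.

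The plot of KO effects by population raises the question of which members differ between populations in that effect, and the difference itself was tested as an interaction. For Zyx the effect in CFU-E minus that in GMP was 1.86 ± 0.396 on the log2 scale (adjusted p = 0.0317), and every KO library lay above all WT libraries in CFU-E and below them in GMP. Zyx was the 1 gene called among the 8 members other than Actn1, and 0.445% of all genes were called. Tpm4 had 2.34 ± 0.578 and was not called (adjusted p = 0.0987), although DESeq2 (adjusted p = 0.0329), the fit with no filter (adjusted p = 0.0162) and the fit with no flow cell term (adjusted p = 0.042) called it. The Zyx call ended without GMP KO 2, KO 3, WT 2 or WT 3 (adjusted p = 0.0574, 0.0735, 0.101 and 0.0868) and without CFU-E KO 1, KO 2, KO 4, WT 1 or WT 3 (adjusted p = 0.0993, 0.0772, 0.0812, 0.139 and 0.750), and with at least 30 counts in every library of a group (adjusted p = 0.0549). Within flow cell A alone, which holds 3 of the CFU-E libraries, the difference was 1.35 and was not called (adjusted p = 0.825).

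Between LSK and CFU-E the KO effects of Tpm4 differed by -2.90 ± 0.449 on the log2 scale (adjusted p = 0.0263), and those of Actn1 by -2.85 ± 0.436. Tpm4 was the 1 gene called among the 8 members other than Actn1, which is described only, and 0.0425% of all genes were called in that interaction. The Tpm4 call ended with limma-voom (adjusted p = 0.262), without LSK KO 1, KO 2, KO 3 or WT 3 (adjusted p = 0.101, 0.0988, 0.0801 and 0.0585) and without CFU-E KO 1, WT 1 or WT 3 (adjusted p = 0.136, 0.0958 and 0.426). The difference itself stayed between -3.25 and -2.67 over all alternatives. Library kits differ between these populations but not within one. Between LSK and GMP, edgeR called 0 of the 9 genes, against 0% of 16288 genes; 4 had an unadjusted p under 0.05, and DESeq2 called 0 of the 9 and 57 genes in all. All 3 interactions reuse libraries (CFU-E minus GMP and LSK minus CFU-E share the CFU-E libraries), so they are not independent.

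Among the wild-type libraries, CFU-E had less of most members than GMP. Actn1 is described without a test here too, since the same WT libraries form the contrasts that led to its choice. Of the other 8 genes, 6 were called, 5 lower and 1 higher in CFU-E WT, against a background of 48.6% of genes called in this comparison (25.3% lower and 23.2% higher), and 7 did not overlap, against 59.4%. Levels here are CPM scaled over GMP and CFU-E libraries together. Actn1 was at 3.46 ± 1.17 CPM in CFU-E WT (SD, n = 3) and 289 ± 26.6 CPM in GMP WT (n = 3), a 74.8-fold lower level in CFU-E (log2 fold change -6.22 ± 0.296). Zyx was 13.3-fold lower, at 7.59 ± 3.32 CPM in CFU-E WT and 98.1 ± 11.0 CPM in GMP WT (adjusted p = 2.09e-09).

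Flna (6.96-fold), Tpm3 (4.31-fold), Tpm4 (4.21-fold) and Tln1 (2.38-fold) were also lower in CFU-E WT, with adjusted p between 3.4e-09 and 0.000583. Tpm1 went the other way: it was 2.45-fold higher, at 100.5 ± 8.75 CPM in CFU-E WT and 39.0 ± 6.70 CPM in GMP WT (adjusted p = 9.13e-05). Tropomyosin 1 is, as background, one of the tropomyosins of the red cell skeleton. Actn4 was not called, at 51.9 ± 7.33 CPM in CFU-E WT and 58.5 ± 17.8 CPM in GMP WT (log2 fold change -0.11 ± 0.262, adjusted p = 0.747), and its sign turned without GMP WT 2 or WT 3. Vcl was not called either (log2 fold change -1.06 ± 0.543, adjusted p = 0.113). The 6 calls held under each alternative that tested the gene, including the fit with WT libraries of flow cell A alone.

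**Figure D4:**
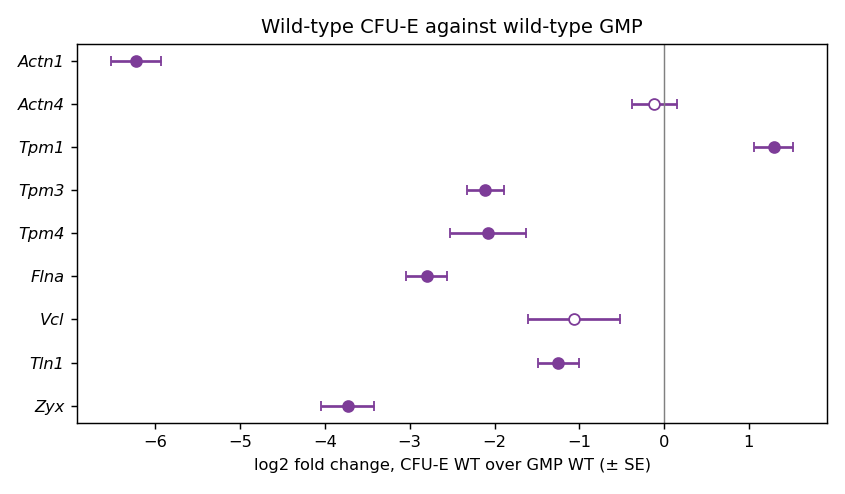
Log2 fold change of CFU-E WT over GMP WT with its SE for the 9 genes; filled circles passed the threshold and open circles did not, and Actn1 is a description only. Actn1 lies farthest left at -6.22, Actn4 is near 0 at -0.11, and Tpm1 is the member to the right at 1.29.

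Other genes of the actin and adhesion machinery were followed in 7 lists of 165 genes, all in the table, of which 157 passed the filter on low counts in LSK, 108 in GMP and 104 among CFU-E libraries. In LSK 1 was called and fell, which is 0.637% of those tested against 0.0793% of all genes. In GMP 2 fell, 1.85% against 1.45% of all genes, a share near the background. In CFU-E 3 rose and 1 fell, 3.85% against 1.06% of all genes. The lists were chosen with earlier results of these data known. These shares, and those by list below, therefore support nothing by themselves. The gene that fell in every population was Cnn3, a calponin that binds actin filaments, which had 5.67 ± 0.979 CPM in LSK KO and 27.0 ± 2.91 CPM in LSK WT, 0.597 ± 0.637 CPM in GMP KO and 6.02 ± 0.868 CPM in GMP WT, and 0.938 ± 0.419 CPM in CFU-E KO and 30.9 ± 0.885 CPM in CFU-E WT (adjusted p = 0.00851, 0.00742 and 2.78e-06). Its groups did not overlap in any population. The Cnn3 call ended in LSK without KO 1, KO 2 or WT 3 (adjusted p = 0.0722, 0.0511 and 0.0615), in LSK without WT 2 and WT 4 together (adjusted p = 0.0567) and in GMP without WT 3 (adjusted p = 0.0819). Gsn, gelsolin, which severs and caps filaments, fell in GMP KO, to 93.7 ± 25.2 CPM in KO against 197.6 ± 27.7 CPM in WT (adjusted p = 0.0381). The Gsn call ended without GMP KO 2, KO 3, WT 2 or WT 3 (adjusted p = 0.0729, 0.0859, 0.236 and 0.174) and with counts drawn down to the shallowest GMP library (adjusted p = 0.0666).

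In CFU-E the genes that rose were Tmsb4x, Itgb3 and Itga2b. Tmsb4x, thymosin beta 4, which holds actin monomers in reserve, was at 461.9 ± 40.8 CPM in CFU-E KO and 162.6 ± 30.1 CPM in CFU-E WT (log2 fold change 1.54 ± 0.173, adjusted p = 0.000416). Its KO effect also differed between CFU-E and GMP, by 1.75 on the log2 scale (adjusted p = 0.0317). The Tmsb4x interaction call ended without CFU-E WT 3, a fit in which 2 genes in all were called. Itgb3 and Itga2b, the chains of the platelet fibrinogen receptor, were at 42.1 ± 11.0 and 168 ± 61.3 CPM in CFU-E KO and at 12.1 ± 4.63 and 54.9 ± 16.0 CPM in CFU-E WT (adjusted p = 0.0061 and 0.0163). Both calls ended without CFU-E KO 1 (adjusted p = 0.0974 and 0.118) and without CFU-E WT 3 (adjusted p = 0.150 and 0.361), and that of Itga2b in flow cell B alone (adjusted p = 0.0629).

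By list in CFU-E, 2 of 12 integrins were called, 1 of 27 genes of actin turnover and 1 of 15 further cross-linkers, beside 1.06% of all genes. The adhesion adaptors (23 tested), actomyosin genes (20) and genes of the serum response factor and its coactivators (6) had 0 called by edgeR and by DESeq2, and 4, 3 and 3 at an unadjusted p under 0.05. Medians of the log2 fold change were 0.54 for integrins, 0.21 for actin turnover, 0.14 for cross-linkers, 0.09 for adaptors, 0.10 for actomyosin and 0.31 for serum response genes, beside 0.00 for all genes; the 1 partner of tropomyosin tested was at 0.35 and was not called. In the wild-type comparison 73 of 113 genes were lower in CFU-E WT and 12 higher, that is 75.2% called against 48.6% of all genes. The plastin Lcp1, which bundles filaments in white cells, and the coronin Coro1a were 80.0-fold and 174-fold lower in CFU-E WT, and the leukocyte integrin chains Itgal and Itgam 86.1-fold and 82.3-fold lower. Myh10, a heavy chain of nonmuscle myosin, was 81.5-fold higher in CFU-E WT and the adaptor Tns1, tensin, 26.1-fold higher. Myh9, another heavy chain on the list, was lower in CFU-E WT (log2 fold change -1.69, adjusted p = 7.55e-07).

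Marker lists of blood cell types also shifted in contrasts in which Actn1, Tpm4 and Zyx differed. In GMP the granule and monocyte lists belong to the lineages that GMP form, not to other cell types. In CFU-E 17 of the 20 megakaryocyte and platelet markers were tested, and all 17 had a positive log2 fold change, with a median of 1.47. Of these, 6 rose, beside 1.06% of all genes called in CFU-E. The 20 markers summed to 697 to 1447 CPM in CFU-E KO and 196 to 431 CPM in CFU-E WT, and none was at 0 in every library of a CFU-E group. Itgb3 and Itga2b are in this list as well as among the integrins. Plek rose 3.16-fold and Ppbp, a platelet chemokine, 10.9-fold (adjusted p = 0.00468 and 0.0128). Both calls ended without CFU-E KO 1 (adjusted p = 0.0589 for Plek and 0.143 for Ppbp) and without CFU-E WT 3 (adjusted p = 0.207 for Plek and 0.180 for Ppbp). The Ppbp call also ended with limma-voom (adjusted p = 0.053) and in flow cell B alone (adjusted p = 0.0944). The erythroid markers summed to between 10542 and 10832 CPM in CFU-E KO and between 9544 and 10397 CPM in CFU-E WT, with 0 of 14 called by edgeR, 2 at an unadjusted p under 0.05 and 1 called by DESeq2. The rise was not confined to megakaryocyte markers. All 11 granule and neutrophil markers tested in CFU-E had a positive log2 fold change, with a median of 0.62. Of them edgeR called 0 and DESeq2 1, and 5 had an unadjusted p under 0.05. Their sums overlapped, at 332 to 968 CPM in CFU-E KO and 341 to 692 CPM in CFU-E WT.

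In GMP the granule and neutrophil markers summed to between 92181 and 153169 CPM in KO and between 186644 and 240634 CPM in WT. Of 12 tested, 0 had a positive log2 fold change and 1, Ltf, fell, beside 1.45% of all genes called in GMP. The Ltf call ended without GMP KO 1, KO 3, WT 2 or WT 3 (adjusted p = 0.0731, 0.0797, 0.211 and 0.0652) and without KO 1 and KO 4 together (adjusted p = 0.0511). The monocyte markers summed to between 1179 and 1421 CPM in GMP KO and between 2004 and 2184 CPM in GMP WT, and 1 of 11, Ly6c2, fell, beside the same 1.45%. Its call ended without GMP KO 2, KO 3, WT 2 or WT 3 (adjusted p = 0.0597, 0.0688, 0.109 and 0.0698). Of the LSK lists, the neutrophil markers summed to between 6077 and 16502 CPM in KO and between 10717 and 20413 CPM in WT, with a median log2 fold change of -1.23 over 12 markers, and the median was -1.93 over 7 B cell markers. For the B cell list edgeR called 0, DESeq2 5, and 5 had an unadjusted p under 0.05; for the neutrophil list edgeR and DESeq2 called 0 and 3 had an unadjusted p under 0.05. Of the megakaryocyte, neutrophil and monocyte markers, none was at 0 in every library of LSK KO, LSK WT, GMP KO or CFU-E KO. However, 1 megakaryocyte marker was at 0 in every GMP WT library and 4 monocyte markers were at 0 in every CFU-E WT library. In LSK the megakaryocyte markers summed to between 991 and 1114 CPM in KO and between 684 and 1017 CPM in WT, with a median log2 fold change of 0.55 over 19 markers; edgeR called 0, DESeq2 6, and 12 had an unadjusted p under 0.05. The LSK monocyte markers summed to between 272 and 918 CPM in KO and between 452 and 1423 CPM in WT, with a median of -1.09 over 14 markers; edgeR called 0, DESeq2 4, and 8 had an unadjusted p under 0.05. The LSK stromal markers summed to between 16.6 and 24.8 CPM in KO and between 21.8 and 98.7 CPM in WT. Their median log2 fold change was -0.93 over 7 markers, of which edgeR called 0 and DESeq2 2, and 3 had an unadjusted p under 0.05. Whether a marker shift came from the sorted cells or from other cells, and its part in the Actn1, Tpm4 and Zyx results, was not tested.

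**Figure D5:**
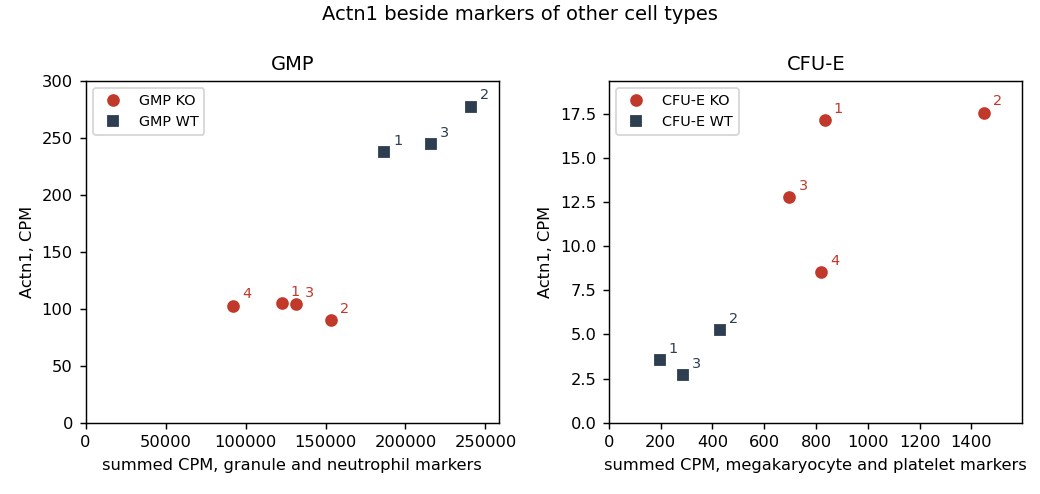
Actn1 level in CPM against the summed CPM of granule and neutrophil markers in GMP (left) and of megakaryocyte and platelet markers in CFU-E (right), with replicate numbers beside the points, circles for KO and squares for WT. In GMP the KO libraries lie at 90.3 to 105 CPM of Actn1 over marker sums of 92181 to 153169 CPM, and in CFU-E the KO libraries lie above the WT libraries on both axes.

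The plot of Actn1 against marker sums shows how the libraries were placed within a group. Among GMP KO libraries the marker sum ran from 92181 CPM in KO 4 to 153169 CPM in KO 2, while Actn1 was 103 CPM in KO 4 and 90.3 CPM in KO 2. In CFU-E, KO 2 had the highest sum, 1447 CPM, and the highest Actn1, 17.6 CPM, but KO 4 had 8.51 CPM of Actn1 at a sum of 821 CPM, close to the 833 CPM of KO 1, which had 17.1 CPM of Actn1.

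The genes whose log2 CPM ran most like Actn1 over the 7 libraries of a population were listed by Pearson r, with no test, since KO and WT libraries form 2 clusters and any gene with the same KO difference scores high. In GMP, of 8871 genes, those most like Actn1 included Fam160b2 (r = 0.985), Pacs1 (0.985), BC037034 (0.982) and Gpc1 (0.981). Gpc1, a glypican, was at 101.7 ± 8.82 CPM in KO and 503 ± 118 CPM in WT. Among the members Zyx came closest (r = 0.888, rank 116), followed by Tpm3 (0.793), and Tpm1 ran opposite (-0.71).

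In CFU-E, of 8645 genes, those most like Actn1 were Ccny (r = 0.973), Sla (0.972), Gadd45g (0.968), Itgb3 (0.967) and Ier5 (0.963, rank 6), leaving out a predicted gene at rank 5 that has no name beyond a Gm number. Tpm4 was the closest member (r = 0.935, rank 20), followed by Zyx (0.823, rank 236). Sla, an adaptor protein, was at 20.99 ± 4.13 CPM in CFU-E KO and 5.67 ± 1.22 CPM in CFU-E WT. Ccny, a cyclin, had 139 ± 6.06 CPM in CFU-E KO and 120.6 ± 5.30 CPM in CFU-E WT, a log2 fold change of 0.22, so a high r went with a small difference there.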

How the data were processed

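The authors deposited raw, whole-number counts per gene for the 21 libraries. STAR 2.4, HTSeq 0.6.1, DESeq2 and mm9 are named per the submitters' processing notes. The annotation and the strand setting were "not given in the sources used here", which leaves overlapping and antisense genes uncertain. Members, gene lists, markers and comparisons were chosen with earlier results of these data known. GGGCGG and the CTCF core were added to the motif search after the other 4 motifs had matched in few windows. Promoter windows come from RefSeq (GRCm38.p6).

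Tests were run in R 4.3.3 with edgeR 4.0.16: genes passing filterByExpr (minimum count 10, minimum total 15) were scaled by TMM, fitted by quasi-likelihood, and adjusted by Benjamini-Hochberg over every gene tested. Each SE was derived from F (log2 fold change over its root). The sample descriptions name 2 flow cells: A holds the GMP libraries with CFU-E KO 1, WT 1 and WT 2, and B the remaining CFU-E libraries. Fits with CFU-E carry a flow cell term. Alternatives were DESeq2 1.42.0, limma 3.58.1 (voom), other scaling and filters, a replicate block, and fits leaving libraries out. Where 1 library of a group was left, it was assumed to vary like the others. Scripts were tested on simulated counts. Replicates all differed by more than counting noise (chi-square per degree of freedom at least 4.03). From each list, up to 3 called genes with the smallest p were named for KO against WT, and up to 2 for the wild-type comparison. Myh9 was named outside this rule, beside Myh10. Likeness to Actn1 used log2 CPM with a prior count of 2, over genes of at least 5 CPM. Genes named only by a Gm number or a symbol ending in Rik were passed over. 1 gene that this rule selects in GMP is not reported here.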

Additional observations from a re-analysis of the deposited data

Results flagged for a closer look

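In groups of 4 libraries, the distance of the highest or lowest library from its neighbour was compared with Dixon's critical value, over 27 groups of a member's levels, of which chance marks about 1 in 20. The test marked 3 libraries. Actn1 was 90.3 CPM in GMP KO 2, below 103 to 105 CPM in the other GMP KO libraries. Actn4 was 40.4 CPM in CFU-E KO 2, below 62.6 to 66.2 CPM in the other CFU-E KO libraries. Tpm1 was 67.6 CPM in LSK WT 3, below 85.2 to 87.6 CPM in the other LSK WT libraries.

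Between populations, the KO effect of Zyx in CFU-E exceeded that in GMP by 1.86 on the log2 scale (adjusted p = 0.0317, edgeR). The KO effect of Tpm4 in LSK minus that in CFU-E was -2.90 (adjusted p = 0.0263, edgeR). For Actn1 the difference was 3.48 between CFU-E and GMP and -2.85 between LSK and CFU-E, given without a test because its KO effects in CFU-E and GMP led to the choice of genes.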

How the results depend on the processing

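Counts of called members moved with the tool, the filter and the libraries. In LSK, 0 were called in edgeR, 2 with DESeq2, and 0 to 1 when 1 library was left out. GMP had 1 under every alternative. In CFU-E the count was 1, against 3 with DESeq2, 3 with no filter on low counts, 3 with no flow cell term and 0 in flow cell B alone, and it ran from 0 to 2 when 1 library was left out; Actn1 was lost without KO 1 or WT 3. CFU-E minus GMP had 2, against 3 with DESeq2, 3 with no filter, 3 with no flow cell term, 1 with at least 30 counts in every library of a group and 1 in flow cell A alone, and 1 to 2 when 1 library was left out. LSK minus CFU-E had 2, against 1 with limma-voom and 0 to 2 when 1 library was left out. The wild-type count kept to 6 or 7. Outside LSK these counts include Actn1, which is described only there.

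Signs turned in 66 values of 24 results, none called (smallest adjusted p 0.705, largest size 0.39 on the log2 scale). For LSK, without WT 2 and WT 4, these were Actn4 -0.0030, Tpm3 -0.058, Flna -0.39, Vcl -0.17 and Tln1 -0.30; leaving out 1 library gave -0.10 to 0.42 for Flna and -0.062 to 0.20 for Vcl. For GMP, leaving out 1 library gave -0.18 to 0.081 for Flna and -0.23 to 0.15 for Vcl; the stricter filter gave 0.028 for Flna, and leaving out KO 1 and KO 4 gave 0.27 for Vcl and -0.17 for Tln1. For CFU-E, leaving out 1 library gave -0.075 to 0.33 for Tpm3, -0.11 to 0.45 for Flna and -0.043 to 0.093 for Tln1, and flow cell A alone gave -0.088 for Tpm3 and -0.13 for Flna. For CFU-E minus GMP, leaving out 1 library gave -0.10 to 0.54 for Flna, -0.32 to 0.65 for Vcl and -0.26 to 0.11 for Tln1; flow cell A alone gave -0.095 for Flna and -0.31 for Vcl, and no flow cell term -0.00021 for Vcl. For LSK minus CFU-E, leaving out 1 library gave -0.012 to 0.24 for Actn4, -0.15 to 0.049 for Tpm1, -0.36 to 0.16 for Tpm3, -0.46 to 0.23 for Flna, -0.64 to 0.39 for Vcl and -0.045 to 0.53 for Tln1; limma-voom gave 0.0094 for Flna and no flow cell term 0.11 for Vcl. For LSK minus GMP, leaving out 1 library gave -0.035 to 0.43 for Flna, -0.053 to 0.60 for Vcl and -0.14 to 0.41 for Tln1. In the wild type, Actn4 ran from -0.35 to 0.036. The cause was not tested.

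Over all genes, LSK had 14 calls (342 with DESeq2, 38 with no filter, 0 to 123 when 1 library was left out), GMP 145 (300 with DESeq2, 601 with no filter, 84 with the stricter filter, 60 thinned, 38 to 211 when 1 library was left out), CFU-E 108 (182, 333 and 234 with DESeq2, no filter and no flow cell term, 22 to 143 when 1 library was left out), CFU-E minus GMP 49 (128, 254 and 81 with those settings, 2 in flow cell A alone) and LSK minus CFU-E 7 (83, 32 and 18). LSK minus GMP had 0 (57 with DESeq2, 12 with no filter).

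Replicate numbers shared between KO and WT were not used to pair the libraries in the main fits. The correlations of same-numbered libraries ran from -0.18 to 0.25. Libraries of different numbers were not set beside them, so these values cannot settle whether the numbers pair the libraries. With a replicate block, 0 members were called in CFU-E and 0 in LSK minus CFU-E, both with the flow cell term. Counts over all genes were then 0 in LSK, 325 in GMP, 31 in CFU-E and 0 in LSK minus CFU-E. Among the named list genes, the block ended the edgeR calls of Ppbp and Itga2b in CFU-E (adjusted p = 0.0785 and 0.0583). It also ended that of Cnn3 in LSK (adjusted p = 0.128). The block gave -0.045 for Vcl in LSK, 0.0084 for Vcl and -0.020 for Tln1 in GMP, 0.15 for Tln1 in CFU-E minus GMP, -0.0096 for Actn4 and 0.038 for Tpm1 in LSK minus CFU-E, and -0.0076 for Vcl in LSK minus GMP.

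Low counts limit Actn1 in CFU-E, and Tpm4 and Vcl in GMP and CFU-E.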
